A study of Mus musculus with 2 samples.

Results

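The regions described here are the 15 of 61400 listed regions that overlap chr13:21750000-23850000 of build mm9, a window of 2.1 Mb taken as the main cluster of replication-dependent histone genes (Hist1). Chromosome 13 held 3144 listed regions in all. A listed region is a stretch with more histone H4 tags in SAHA-treated than in DMSO-treated cells, here called SAHA-high. The members were chosen by position alone. That the window holds the histone cluster rests on its definition, since no mm9 gene annotation was used here.

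The data came from MC3T3 sc4 cells, a subclone of a mouse calvarial osteoblast line, so both groups share a single clonal origin. Both groups were grown in osteogenic medium with ascorbic acid and beta glycerol phosphate and were treated on day 4 for 2 h, then for another 40 min during a collagenase digest. The SAHA group received 20 µM SAHA, also called vorinostat, a drug that blocks histone deacetylases, and the DMSO group received its solvent. Each group was 1 chromatin immunoprecipitation sequencing (ChIP-seq) library, with an antibody labelled as against histone H4 and described in the series' design as against acetylated H4. The kept tags numbered 123676661 for SAHA (97.4% of its tags) and 76214516 for DMSO (65.6%). With 1 library per group there is no replicate error and no test between groups, and the intervals of single regions below cover counting error only. A list of regions cannot be checked for markers of the cell type.

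Replication-dependent histone genes supply the core histones H2A, H2B, H3 and H4 and the linker histone H1 that package newly made DNA in S phase. They lie in clusters of many intronless copies, and their mRNAs end in a stem-loop in place of a poly(A) tail. In osteoblasts their transcription is tied to proliferation and declines as cells leave the cell cycle and differentiate. The tail of histone H4 is acetylated on lysines by acetyltransferases, and the deacetylases that SAHA inhibits remove these groups.

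The genes of the cluster are given from RefSeq in the order of build GRCm38.p6. Positions differ between that build and mm9, so no listed region was placed on a gene, and what each region overlaps was not analysed here. Whether every gene of this order lies inside the mm9 window was not checked either, so the gene run and the window may end at different places. The cluster, running from H2bc13 to H2ac1, held 55 genes that carry a Hist1h name, of which 54 were protein-coding. They comprised 6 H1, 14 H2A, 15 H2B, 9 H3 and 11 H4 genes. A further gene with such a name lay far away on the chromosome and was left apart.

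The histone genes formed 3 blocks in this order. The first block held 19 histone genes, from H2bc13 on, among them H1f5, which encodes a linker histone. After it came 39 other genes, of which 31 were tRNA genes and 3 were Zfp184 (a zinc finger gene), Pom121l2 and Prss16 (a serine protease of the thymus). The second block held 5 histone genes, H2ac12 to H2bc11. The next 147 genes held no histone gene. Of these, 79 were Vmn1r vomeronasal receptors, which detect pheromones (36 protein-coding and 43 pseudogenes), 46 were tRNA genes and 2 were the butyrophilins Btn1a1 and Btn2a2. The remainder included Zfp322a and Abt1. The third block held 31 histone genes, from H4c8 to H2ac1. Between them lay Hfe, a regulator of iron uptake, Trim38, and the transporters Slc17a1 to Slc17a4.

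**Figure D1:**
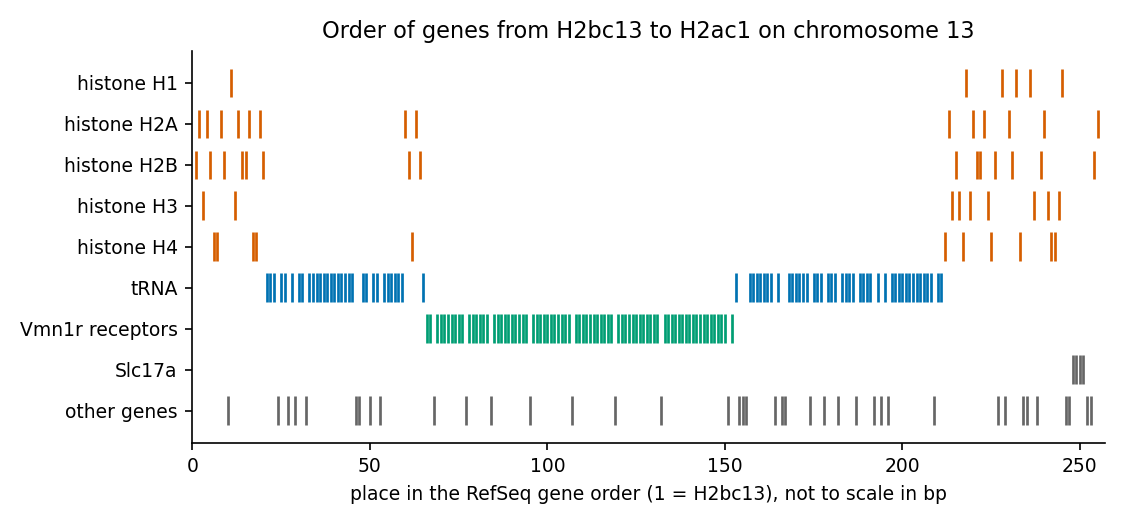
Each line is 1 of the 255 genes from H2bc13 to H2ac1, placed by its rank in the RefSeq order of build GRCm38.p6 (x axis, not to scale in bp) and by gene class (y axis). Histone genes (orange) stand in 3 blocks, and the longest run without a histone gene holds the 79 Vmn1r genes (green) and 46 tRNA genes (blue).

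The promoters below show what the DNA in front of a histone gene of each kind looks like. H4c12, H3c10, H2bc12 and H1f5 were chosen to show motifs typical of an H4, an H3, an H2B and an H1 gene, not by any value of the list. Each is the 250 bases before the RefSeq gene start, 5′ to 3′ on the gene's strand, from build GRCm38.p6, whose positions cannot be set against the mm9 positions of the regions. They are H4c12 at chr13:21750554-21750803 on the minus strand, H3c10 at chr13:21717378-21717627 on the plus strand, H2bc12 at chr13:22035571-22035820 on the plus strand and H1f5 at chr13:21780626-21780875 on the minus strand. Capitals mark matches, on either strand, to the TATA box TATAAA, the CCAAT box CCAAT, the octamer ATTTGCAT and the H1 box AAACACA. The octamer is bound by Oct1 in H2B promoters, and the H1 box is an element of H1 promoters. Matches to different motifs share no letters with each other in these sequences.
H4c12: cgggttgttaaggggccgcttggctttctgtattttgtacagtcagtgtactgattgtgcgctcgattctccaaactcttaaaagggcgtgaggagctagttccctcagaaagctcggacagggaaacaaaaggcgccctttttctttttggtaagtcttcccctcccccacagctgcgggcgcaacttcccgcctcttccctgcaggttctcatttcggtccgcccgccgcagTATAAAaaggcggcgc
H3c10: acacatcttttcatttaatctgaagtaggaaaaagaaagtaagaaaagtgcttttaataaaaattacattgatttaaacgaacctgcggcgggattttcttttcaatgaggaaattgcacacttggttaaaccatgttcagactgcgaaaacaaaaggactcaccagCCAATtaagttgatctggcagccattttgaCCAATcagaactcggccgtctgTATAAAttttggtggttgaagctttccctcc
H2bc12: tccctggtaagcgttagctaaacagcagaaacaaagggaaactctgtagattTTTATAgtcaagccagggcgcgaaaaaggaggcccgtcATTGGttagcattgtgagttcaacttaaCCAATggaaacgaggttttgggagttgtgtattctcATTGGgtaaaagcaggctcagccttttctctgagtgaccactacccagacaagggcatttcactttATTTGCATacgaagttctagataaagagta
H1f5: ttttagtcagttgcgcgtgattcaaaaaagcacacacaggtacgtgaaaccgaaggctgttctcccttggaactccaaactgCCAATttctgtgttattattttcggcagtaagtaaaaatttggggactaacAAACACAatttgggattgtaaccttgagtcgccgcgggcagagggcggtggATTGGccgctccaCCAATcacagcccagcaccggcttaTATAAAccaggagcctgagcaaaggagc

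H4c12 held 1 TATA box and no match to the other motifs. H3c10 held 1 TATA box and 2 CCAAT boxes. H2bc12 held 3 CCAAT boxes, 1 octamer near the end of the printed stretch and 1 TATA box, which reads on the opposite strand. H1f5 held 3 CCAAT boxes, 1 TATA box and 1 H1 box. Over all RefSeq promoters (300 bases, 250 before to 50 after the start), 52 belonged to 51 of the 55 histone genes. TATAAA was present in 31 of the 52 (59.6%) and in 13.6% of all 32851 promoters. CCAAT was present in 44 (84.6%, against 37.4% of all). It was in all 6 H1, 13 H2A, 15 H2B and 7 H3 promoters in the table and in 3 of 11 H4 promoters. ATTTGCAT was present in 11 (21.2%, against 1.74% of all), which were 6 H2B and 5 H2A promoters. AAACACA was present in 9 (17.3%, against 7.18% of all), including 5 of the 6 H1 promoters. These are matches of letters, not binding sites.

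Some of these promoters hold stretches that a tag of 50 bases, the tag size in the file headers, cannot place at 1 position. In 8 of the 52 histone promoters (15.4%) at least 1 stretch of 50 bases also stood at another position among all promoters of the table, against 8.13% of all promoters. In H2bc23 this held for 251 of 251 stretches, and in H4c17 and H4c18 for 236 of 251 each. All 8 lay in the first block. How such tags were placed in these libraries was not analysed here.

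The 15 regions lay in separate groups, near the ends of the window. Regions 1 to 9, numbered along the window, lay within 309.8 kb at chr13:21802803-22112635. Regions 10 to 15 lay within 285.6 kb at chr13:23503061-23788655. Between them, chr13:22112636-23503060 held no listed region over 1.39 Mb, or 66.2% of the window. This was the 15th longest of the 3143 gaps on chromosome 13, where the median gap was 2459 bp and the longest 3.33 Mb. A total of 22 gaps reached 1 Mb. A stretch without a region holds no SAHA-high call, and the list gives no tag counts there.

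Within the first group the regions again came in sets. Regions 1 to 5 lay 52.8 to 94.8 kb into the window. After a gap of 183.2 kb came region 6, and after 57.8 kb regions 7 to 9. Regions 10 to 15 were single, with gaps of 22.1 to 98.0 kb between them. When regions no more than 10 kb apart were joined, the window held 12 clusters, of which 9 were single regions and none held more than 2. On chromosome 13 as a whole the same joining put 55.5% of regions into clusters of 5 or more, the largest of 56.

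**Figure D2:**
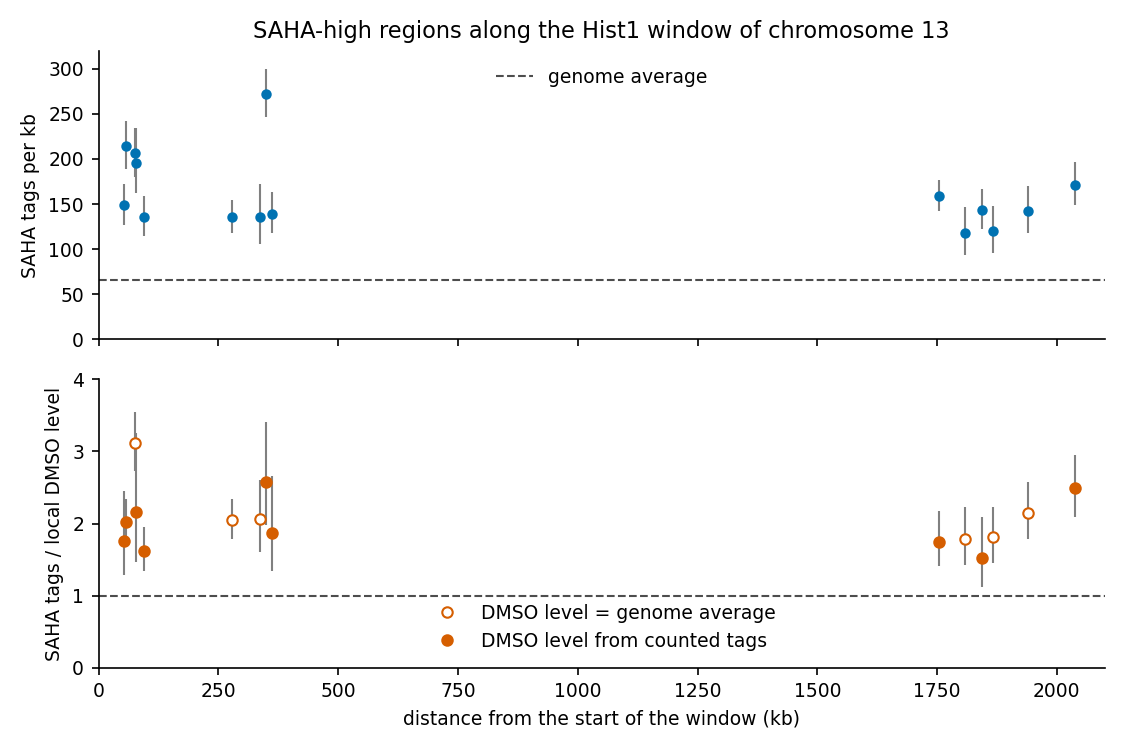
The 15 regions by distance from the window start (x axis, kb), with SAHA tags per kb (upper panel, 95% Poisson intervals, dashed line at the genome average of 66.1) and the ratio of SAHA to local DMSO (lower panel, 95% intervals, dashed line at 1, with levels fitted as described in the text). The regions stand near the ends, with none over 1.39 Mb between them, and the ratios run from 1.52 to 3.12. That they exceed 1 was set by the call.

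For each region the list gives the SAHA tags, the score (10 times the −log10 of a Poisson p, with 50 as the cutoff), the fold enrichment at the summit over the local DMSO background, and the FDR. These values are the authors'. The FDR is read as the caller is known to define it, which the file headers do not state: regions called with SAHA and DMSO exchanged, per 100 listed regions of the same or higher score. The local DMSO level was recovered as the Poisson mean that gives the listed score for the listed tags. It is stated at SAHA depth and as a multiple of the genome average of 66.1 tags per kb. The caller, as it is known to work, tests against whichever background is greatest: the genome average, the region's own DMSO tags, or those within 1 kb or 10 kb. The level therefore bounds the region's DMSO from above. The ratio, which is SAHA tags divided by the level, is bounded from below, and both are exact where the region's own tags set them. A region is listed only where its SAHA tags exceeded that background at a p of 1e-05, so a ratio above 1 was a condition of the list and is no finding, and the intervals do not allow for that choice.

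In 10 of the 15 regions the level equalled such a background with the tags as listed. In the other 5 (regions 2, 6, 8, 12 and 13) it did so, together with a whole summit height, when the tested tags were taken as 1 more or 1 fewer than listed. No other shift among the 17 from -1 to 15 gave both. The summit height is not in the list and was calculated from the fold and the level per base. The values below use that fit for these 5, and the ratio it moved most was that of region 13, from 1.84 to 1.81. A background of 1 kb cannot be told from one of 10 kb with 10 times the tags. A level that matched no background with the tags as listed was not confined to this window. Among regions with a recovered level, it made up 33.3% in the window, 22.8% on chromosome 13 and 24.25% of the whole list.

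The highest scores in the window belonged to regions 8 and 3, both in the first group. Region 8, at chr13:22097480-22099001 (1522 bp), held 414 SAHA tags (95% Poisson interval 375 to 456) against a DMSO level of 160.5. That level corresponded to 65 DMSO tags within 1 kb, or 1.59 times the genome average. The ratio was 2.58 (95% interval 1.98 to 3.40, exact binomial on both counts). This was the densest region, with 272.0 SAHA tags per kb, and its summit stood 85 tags high, the tallest of the 15. Its score was 617.47 and its fold 5.72. Its FDR of 100% was the only one in the window: at least as many regions of that score or higher were called with the libraries exchanged. An FDR of 100% was not rare elsewhere, with 282 of the 3144 regions on chromosome 13 and 7127 of all 61400 listed regions.

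Region 3, at chr13:21824709-21825804 (1096 bp), held 226 SAHA tags (interval 197 to 257) where the genome average, 72.5 tags, set the DMSO level. Its ratio of 3.12 (interval 2.72 to 3.55, from the SAHA tags alone) and its fold of 6.54 were the highest in the window, and its score was 468.47 with an FDR of 89.77%. The summit was 61 tags high, where the genome average gives 9.33. Regions 3 and 8 were the only members with a fold of at least 5, or 2 of 15, beside 19.0% of all listed regions and 19.7% of those on chromosome 13.

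The neighbours of region 3 were weaker in score. Region 4, 1335 bp further on at chr13:21827140-21827748 (609 bp), held 119 SAHA tags against 34 DMSO tags counted in the region itself, or 55.2 at SAHA depth. This was a ratio of 2.16 (exact binomial interval 1.46 to 3.26), with a score of 135.17. Region 5, at chr13:21843683-21844818, held 154 SAHA tags at a ratio of 1.62 (interval 1.35 to 1.95) to 515 DMSO tags within 10 kb, with a score of 80.07. The interval of region 5 lies wholly below that of region 3. Both ratios are lower limits, and the intervals are of unlike kinds, so this does not order these regions by their own DMSO tags.

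Regions 1 and 2 opened the window and lay 2625 bp apart. Region 1, at chr13:21802803-21803953, held 171 SAHA tags (148.6 per kb) at a ratio of 1.76 (interval 1.28 to 2.45), with 52 DMSO tags within 1 kb. Region 2, at chr13:21806579-21807769, held 255 SAHA tags (214.1 per kb) at a ratio of 2.02 (interval 1.74 to 2.34), with 654 DMSO tags within 10 kb. The DMSO level of region 2, 1.60 times the genome average, was the highest of the 15, with region 8 next to it. The ratios of regions 1 and 2 did not differ beyond their intervals.

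Regions 6, 7 and 9 closed the first group, around region 8. Region 6, at chr13:22028041-22029613, held 213 SAHA tags at a ratio of 2.05 (interval 1.78 to 2.34) to the genome average, and a score of 208.71. Region 7, at chr13:22087433-22087939, was the shortest at 507 bp and held the fewest tags, 69 (interval 53.7 to 87.3), at a ratio of 2.06 to the same average. Region 9, at chr13:22111516-22112635, held 156 SAHA tags at a ratio of 1.87 (interval 1.34 to 2.65) to 46 DMSO tags within 1 kb. Region 9 was the last before the stretch of 1.39 Mb. Their densities, 135.4 to 139.3 SAHA tags per kb, were close together and stood at 2.05 to 2.11 times the genome average.

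The first region after that stretch, region 10 at chr13:23503061-23505147, was the longest at 2087 bp. It held 331 SAHA tags against 117 DMSO tags of its own, or 189.9 at SAHA depth. The ratio was 1.74 (exact binomial interval 1.41 to 2.17), with a score of 201.42 and a fold of 3.74. Regions 4 and 10 are the only members for which the list yields the DMSO count of the region itself.

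Regions 11, 12 and 13 were the weakest by score. Region 11, at chr13:23557282-23557966, had the lowest score of the window, 62.13, with 81 SAHA tags at a ratio of 1.79 to the genome average. Region 12, at chr13:23593318-23594510, had the lowest fold, 3.01, and the lowest ratio, 1.52 (interval 1.12 to 2.09), with 171 SAHA tags against 58 DMSO tags within 1 kb. Region 13, at chr13:23616564-23617289, held 87 SAHA tags at a ratio of 1.81 to the genome average, with a score of 71.02. The FDR did not follow this order. It was 67.96% to 68.93% in these 3 and 70.26% in region 15, it ran from 59.73% to 100% over the 15 members, and the lowest of the whole list was 58.23%.

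The last 2 members were stronger. Region 14, at chr13:23688598-23689435, held 119 SAHA tags at a ratio of 2.15 (interval 1.78 to 2.57) to the genome average, and its fold of 4.72 was the highest of the second group. Region 15, at chr13:23787452-23788655, held 206 SAHA tags at a ratio of 2.49 (interval 2.10 to 2.94) to 424 DMSO tags within 10 kb, and its score of 297.45 was the highest of the second group. The nearest listed regions outside the window had ratios within the range of the members, but both were shorter and held fewer SAHA tags than any member. They were chr13:21598974-21599458, with 65 SAHA tags and a ratio of 2.01, and chr13:23860565-23861069, only 10.6 kb past the window's end, with 64 SAHA tags and a ratio of 1.92.

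**Figure D3:**
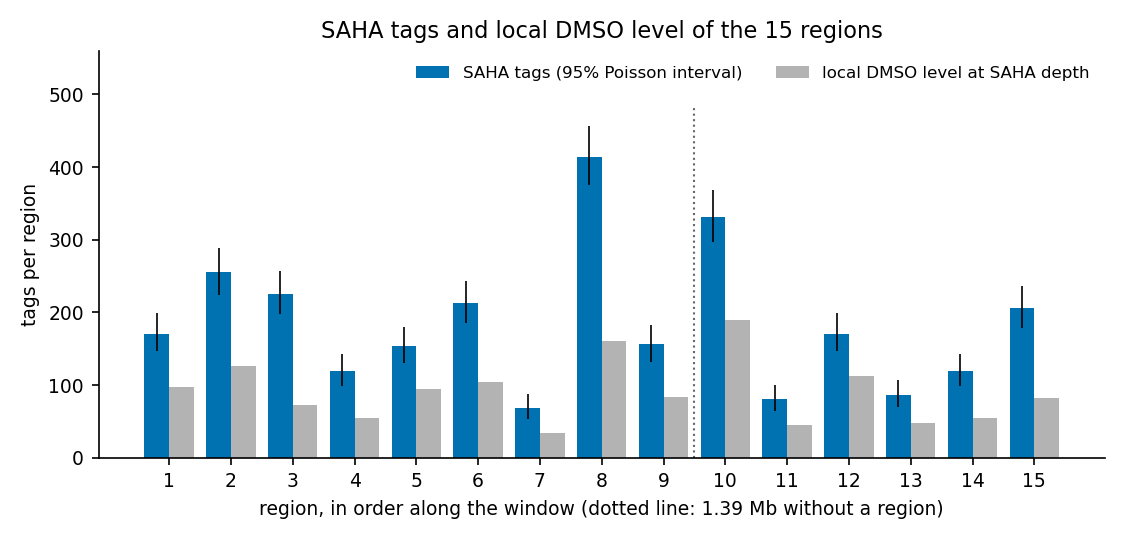
SAHA tags (blue bars, 95% Poisson intervals) and the local DMSO level at SAHA depth (grey bars, an upper limit except in regions 4 and 10) of the 15 regions in order along the window (y axis, tags per region). SAHA tags run from 69 in region 7 to 414 in region 8. The blue bars exceed the grey ones by the condition of the list.

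Over the 15 regions, SAHA tags per region ran from 69 to 414 (median 171) and lengths from 507 to 2087 bp (median 1136 bp). None was longer than 2500 bp, a length exceeded by 18.8% of the other regions on chromosome 13 and by 24.2% of all listed regions. Together they covered 16.6 kb and held 2772 SAHA tags, 64.1% of them in the first group. With the tags as listed, the DMSO level had a median of 1.13 times the genome average and never reached 2 times. Levels of at least 2 times made up 9.89% of the other regions on the chromosome and 16.1% of all listed regions with a recovered level. In the window the level matched or, in regions 6 and 13, fitted the genome average in 6 members (40.0%). With the tags as listed, the level was at most 0.1% above that average in 31.3% of the other regions on the chromosome. Over all listed regions with a recovered level this share was 21.8%. Summit heights, calculated from the fold and the level and so not independent of them, ran from 29 tags in region 13 to 85 in region 8. Summits lay between 0.284 and 0.733 of the way along the region.

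The first group was higher than the second in most values, with overlap. Densities ran from 135.4 to 272.0 SAHA tags per kb in regions 1 to 9 (median 148.6) and from 118.2 to 171.1 in regions 10 to 15 (median 142.7). Median scores were 135.17 and 102.5, and median ratios 2.05 and 1.80. The ranges of the groups overlapped in each of these measures, and no test was made.

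A score of at least 100 was reached by 10 of the 15 regions, beside 62.5% of all listed regions and 60.1% on chromosome 13, so this share is near the background. The ratio was at least 2 in 8 of the 15, beside 28.0% of all listed regions with a recovered level and 32.6% on chromosome 13. Of these 8, 6 lay in the first group. Region 2, at 2.01 with its tags as listed, was just past this limit. With the 15 intervals, 7 ratios had a lower bound above 1.5. That count was not made for regions outside the window, so it cannot be read as particular to these members. These intervals are of unlike kinds. They rest on SAHA tags alone where the genome average set the level, and on both counts elsewhere.

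Set against windows of the same size laid end to end along chromosome 13, the Hist1 window was sparse. It held 15 regions, and the other 53 windows held 0 to 188 (quartiles 17 and 97, median 41), which placed it 41st of 54. At the mean density of the chromosome, 26.95 regions per Mb, a window of this size would hold 56.6. The covered share of 0.792% was 43rd of 54 (median of the others 3.76%, highest 21.6%). The 2772 SAHA tags were also 43rd of 54 (median 14000). The adjoining windows held 21 regions before and 55 after. Windows of 1 chromosome are not replicates, so these ranks are descriptions.

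**Figure D4:**
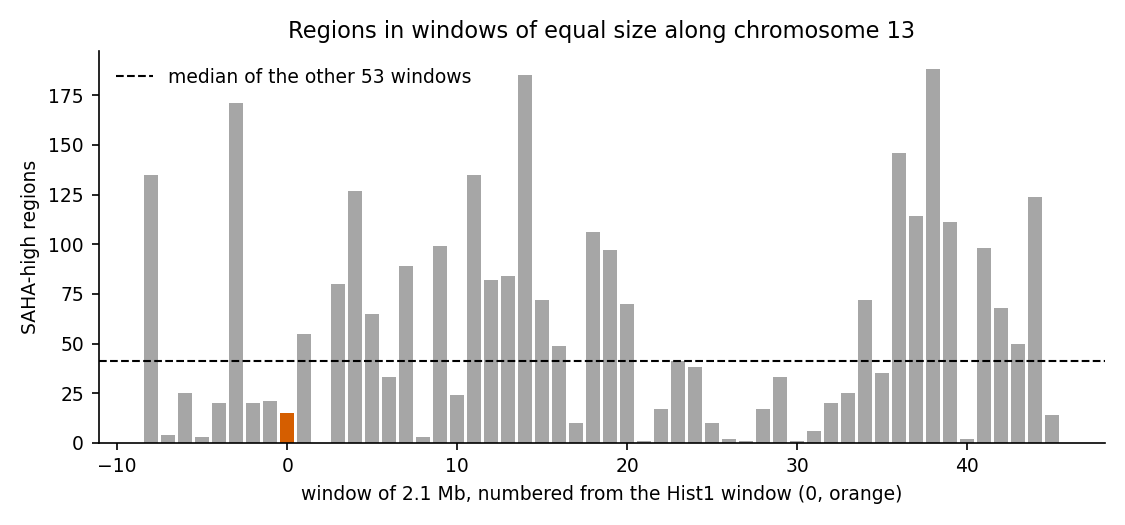
Number of SAHA-high regions (y axis) in 54 windows of 2.1 Mb along chromosome 13, numbered from the Hist1 window (x axis, 0, orange), with the median of the other 53 windows as a dashed line. The Hist1 window holds 15 regions, below the median of 41, and 13 windows hold fewer.

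Fewer bins of the window were occupied, and most occupied ones held 1 region. In bins of 100 kb, 7 of the 21 bins of the window held a region (33.3%), against 508 of 1145 in the rest of the chromosome (44.4%). Where a bin was occupied it held a median of 1 region in the window and 5 elsewhere. The fullest bin of the window, its first, held 5 regions, and the fullest elsewhere held 34. Within the spans of regions 1 to 9 and 10 to 15 there were 29.1 and 21.0 regions per Mb, spans whose ends were set by the regions themselves.

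Among the 44 windows with at least 10 regions, the Hist1 window stood high in ratio and low in summit fold. Here all levels are those from the tags as listed, in every window. The median ratio of 2.01 was 2nd (others with a median of 1.84), behind a window whose median was also 2.01 to 2 decimals. With the fit for its 5 regions the median was 2.02, above that window, whose own regions were not fitted, so the order of these 2 windows is not settled. The share of regions with a ratio of at least 2, 53.3%, was 1st, with the next at 52.5%. That place rests on region 2, at 2.01, without which 7 of the 15 (46.7%) would count and the window would be 4th. Its median fold of 3.74 was 41st (others 3.47 to 4.50). The median score of 133.89 was 17th and the median DMSO level 23rd. The longest region, 2087 bp, was 43rd when windows were ordered by their longest. From ranks over the 15 regions, the median ratio has a 95% interval of 1.76 to 2.16. This interval describes the spread among members and treats neighbouring regions of the same libraries as independent, which they are not. It is no measure of replicate error. The quartiles of the other windows' medians, 1.81 and 1.87, lie inside it.

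At a given DMSO level, a shorter region needs a higher ratio to pass the score cutoff, so the ratio was also set against regions within the same range of lengths. The 2324 other regions of chromosome 13 with lengths of 507 to 2087 bp were shorter on the whole, with a median of 943 bp beside 1136 bp in the Hist1 window. They had a median ratio of 1.87 (quartiles 1.72 and 2.08) and a ratio of at least 2 in 33.0% of cases. Their median fold was 3.90 and their median density 142.4 SAHA tags per kb, beside 143.3 in the Hist1 window. Whether the higher share in the histone window exceeds what separate cultures would give was not tested.

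**Figure D5:**
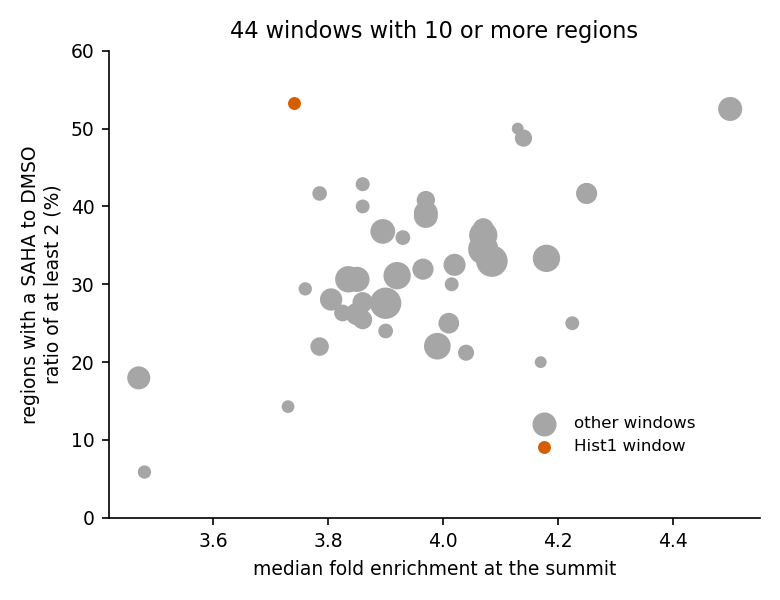
Median summit fold (x axis) and share of regions with a SAHA to DMSO ratio of at least 2 (y axis, percent) in the 44 windows of chromosome 13 with 10 or more regions, with point area growing with the number of regions. The Hist1 window (orange) is at 3.74 and 53.3%.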

How the data were processed

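The authors deposited 1 list of regions from 1 SAHA and 1 DMSO library, per the file headers. The submitters' processing notes name build mm9, MACS 1.4.0rc2, SAMtools, BWA 0.5.9 and CASAVA 1.7.0. MACS took SAHA as ChIP and DMSO as control at a p cutoff of 1e-05, scaled the smaller library to the larger (1 DMSO tag weighs 1.62 SAHA tags) and kept at most 3 duplicates per position, per the file headers. The deposited columns are whole tag counts of SAHA, a score (10 times a −log10 p), a fold enrichment ratio and an FDR in percent. Depth after filtering was 123676661 and 76214516 tags.

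Regions overlapping the window by at least 1 bp were taken. DMSO levels were recovered by inverting the Poisson tail (tolerance 0.005 of score). The inversion was checked on simulated regions built with the same Poisson model and backgrounds. That check covers the arithmetic only and cannot show that the caller worked this way. Intervals of single regions are 95% exact Poisson or exact binomial, and cover counting error only. The 95% interval of the median ratio is from ranks over the members and describes their spread. Windows, bins and promoter motifs came from scripts in Python 3.11.15 (scipy 1.17.1, pandas 2.3.3, numpy 2.4.6). By the naming rule, the regions of highest score, fold, length and ratio and those beside gaps were to be named. With 15 members all were given. Members and lists were chosen with earlier results of these data known. Alternatives were stricter score and fold limits, summit-based membership, joining within 1 kb, sliding windows, matched levels, a pseudocount of 5 and no depth scaling. Gene names and promoters came from RefSeq, build GRCm38.p6.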

Additional observations from a re-analysis of the deposited data

How the results depend on the processing

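Of 40 recomputed values, 32 stayed within 1.5 times the main count or rank share, or within the 95% interval of the main value, and 8 moved. For the covered share that interval was only 0.780% to 0.804%, so a small change in it counted as moved. A fall from 15 to 10 regions, at a score of at least 100, counted as the same. Requiring a score of at least 100 left a covered share of 0.590%. Requiring a fold of at least 5 left 2 regions, a covered share of 0.125% and 640 SAHA tags, with medians of 6.13 for the fold, 1309 bp for the length and 2.84 for the ratio. These shifts follow from keeping fewer or only high-fold regions. Every member's summit lay inside the window, and no members lay within 1 kb of each other. Summit-based membership and joining could therefore change only the ranks, so their other values among the 32 were fixed in advance. Without depth scaling the median ratio was 3.26, larger by the scaling factor of 1.62. The rank by number of regions ran from 34th of 54 (score of at least 100) to 41st, and was 839th of 1104 with sliding windows. Shifting the tags of 5 regions by 1, an alternative chosen after seeing the data, gave a median ratio of 2.02. No paired analysis was possible because each condition has 1 library. The 34.4% of DMSO tags removed before calling cannot be restored from the list, and DMSO-high regions were not analysed here.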
